A study of Caenorhabditis elegans with 6 samples.

Results

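The 10 genes described here encode enzymes that make or break down sphingolipids in C. elegans. They were taken by name from the deposited count table: the glucocerebrosidase genes gba-1, gba-2, gba-3 and gba-4, the acid sphingomyelinase genes asm-1, asm-2 and asm-3, the acid ceramidase gene asah-1, the ceramide glucosyltransferase gene cgt-3 and the serine palmitoyltransferase gene sptl-1. All 10 were found among the 46936 genes of the table, and all 10 passed the filter on low counts, asm-3 only through its MProPow2 libraries. They were chosen by enzyme name with results of this same comparison in view, so that the fold changes and p-values of this comparison count as values that chose them, and gba-2 was then already known as one of the higher genes with the smallest p. What the fit gives for the 10 genes therefore describes these libraries and is no independent support.

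Sphingolipids are membrane lipids built on a long-chain base. Serine palmitoyltransferase carries out the first step of their synthesis, and ceramide synthases add a fatty acid to give ceramide. Ceramide is then turned into glucosylceramide, the base of the glycosphingolipids, or into sphingomyelin. In the lysosome, glucocerebrosidase and acid sphingomyelinase cut these back to ceramide, and acid ceramidase releases sphingosine. The milk fat globule membrane, which the tested powder contains, carries sphingomyelin and glycosphingolipids of its own. The comparison asks how gene expression differed between animals grown with and without the powder.

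Whole-animal poly-A RNA was sequenced from 3 biological replicates grown from the L1 stage on plates with MProPow2, labelled Protein powder 2, and from 3 replicates grown on control plates with water. MProPow2 is 1 batch of a hydrolyzed milk protein powder with milk fat globule membrane, spread on the plates at 1 mg/mL. Both groups were wild-type N2 animals fed E. coli OP50 at 20 °C, both were moved at the L4 stage to plates with 10 µM 5-fluorouracil, which stops the production of progeny, and both were collected on day 2 of adulthood. Since both groups received 5-fluorouracil, the data hold no animals without it.

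The libraries held from 28859395 to 37501098 counts. Expression is given as counts scaled to 1000000 per library (CPM), which compares 1 gene between libraries, or as fragments per kilobase at a fixed depth (FPKM), which also takes gene length into account and compares genes with each other. Means are given ± SD with n = 3, fold changes are on the log2 scale, with their standard error (SE) and with positive values for higher expression in MProPow2, and a gene is said to be called when its adjusted p in edgeR's quasi-likelihood test over the 14534 genes tested was under 0.05. In whole animals, fewer cells of a type and less RNA per cell cannot be told apart. Replicates of the same group differed by more than counting noise, with a chi-square of at least 14.9 per degree of freedom. The markers of intestine, germline, muscle, hypodermis and neurons were detected in every case, apart from 1 intestinal symbol that was not found in the table.

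In control animals, the synthesis genes were the most highly expressed of the 10. Per length, sptl-1 stood at 136 ± 3.28 FPKM and cgt-3 at 97.0 ± 3.16 FPKM, followed by gba-4 at 60.0 ± 0.49 FPKM. A lower tier held asah-1 (18.2 ± 0.21 FPKM), gba-1 (12.0 ± 0.54 FPKM), gba-3 (8.67 ± 0.95 FPKM), asm-1 (7.16 ± 0.67 FPKM) and asm-2 (3.11 ± 0.057 FPKM). The lowest were gba-2 (0.80 ± 0.053 FPKM) and asm-3 (0.094 ± 0.021 FPKM). No neighbours in this order had overlapping control values. In MProPow2 the spread was wider, and neighbours did overlap: sptl-1 (98.0 ± 11.6 FPKM) with cgt-3 (86.9 ± 6.33 FPKM), gba-4 (51.6 ± 12.8 FPKM) with asah-1 (38.3 ± 13.7 FPKM), and asm-1, gba-3, gba-1 and asm-3 each with the next in the order asm-1, gba-3, gba-1, asm-3 and asm-2.

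**Figure D1:**
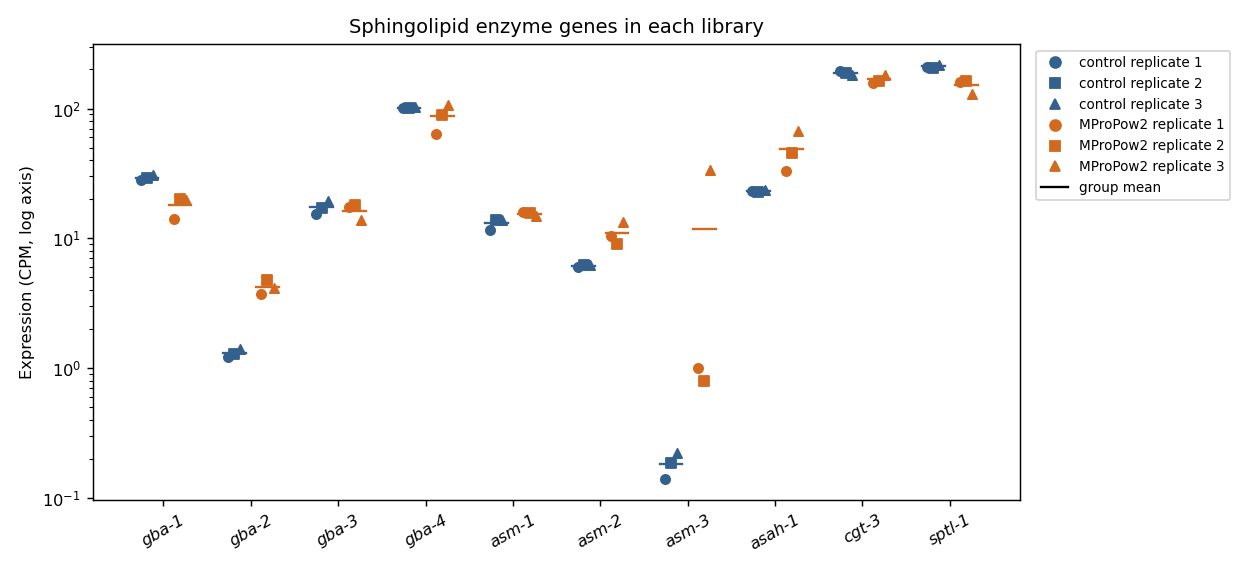
Expression of the 10 enzyme genes in each of the 6 libraries, in CPM on a log axis, with control in blue, MProPow2 in orange, 1 marker shape per replicate and a line at each group mean. The control values of most genes sit close together, and MProPow2 replicate 3 lies far above the other libraries for asm-3 (33.9 CPM).

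Of the 10 genes, 3 were called higher in MProPow2 (gba-2, asm-2 and asah-1), against 1.53% of all genes tested, and 2 were called lower (gba-1 and sptl-1), against 1.47% of all genes tested (3.01% in either direction). The values of the groups did not overlap for 5 genes that were higher (11.1% of all genes tested) and 3 that were lower (12.3% of all genes tested). The median fold change of the 10 genes was 0.078, beside -0.013 for all genes tested, with 5 genes above and 5 below 0. Of the 10 genes, 8 encode enzymes of breakdown, and of these 3 were called higher and 1 lower, while of the 2 genes of synthesis 1 was called lower. Without control replicate 1, 2 or 3, gba-2 was the only one of the 10 genes called in either direction, and without MProPow2 replicate 1 only gba-2 and asah-1 were called. Calls over all genes fell in these fits too, from 223 higher and 214 lower with all libraries. They were 56 and 97, 17 and 55, and 41 and 58 without control replicates 1, 2 and 3. Without MProPow2 replicate 1 they were 58 and 59.

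Glucocerebrosidases split glucosylceramide into glucose and ceramide. Of the 4 worm genes, gba-2 (identifier 183155) rose and gba-1 (identifier 173574) fell. Expression of gba-2 was 1.22, 1.28 and 1.40 CPM in control replicates 1, 2 and 3 and 3.69, 4.73 and 4.14 CPM in MProPow2 replicates 1, 2 and 3. The lowest MProPow2 library was above the highest control library, on at least 35 reads in each. That is a log2 fold change of 1.69 (SE 0.19, edgeR adjusted p = 0.0024), and with each library left out it lay between 1.59 and 1.77 and was called each time.

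The gene gba-1, by contrast, was at 28.2, 29.0 and 30.9 CPM in control and at 14.0, 20.1 and 19.6 CPM in MProPow2. All 3 MProPow2 libraries were below all 3 control libraries, with replicate 1 the lowest. Its log2 fold change was -0.71 (SE 0.14, edgeR adjusted p = 0.033). It lost its call when any control library or MProPow2 replicate 1 was left out (adjusted p of 0.071 to 0.127) and under upper-quartile scaling (0.059). In all, gba-1 was not called in 9 of the 16 processing alternatives, which include a replicate block and limma.

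These genes that moved in opposite directions are neighbours. In the WBcel235 annotation of Ensembl, gba-1 and gba-2 lie on opposite strands and are transcribed towards each other, with their 3' ends overlapping by 17 bases. Neither the build behind the counts nor their strandedness is stated, and reads from the overlap cannot be assigned to a strand. The next protein-coding genes on either side had smaller changes that were not called, with a log2 fold change of 0.22 (SE 0.43) for C33C12.7, which had at most 15 reads, and -0.21 (SE 0.13) for mtq-2.

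The other glucocerebrosidase genes were not called. The most highly expressed, gba-4 (identifier 177314), was at 101, 101 and 103 CPM in control and at 64.2, 89.5 and 107 CPM in MProPow2. The controls were nearly equal, while MProPow2 replicate 1 lay below them and replicate 3 above. Its log2 fold change was -0.23 (SE 0.15, edgeR adjusted p = 0.52), and without MProPow2 replicate 3 it was -0.41 and called (adjusted p = 0.047).

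For gba-3 (identifier 178535), values were 15.4, 17.2 and 19.3 CPM in control and 17.3, 18.0 and 13.7 CPM in MProPow2, and the groups overlapped. Its log2 fold change of -0.081 (SE 0.14, edgeR adjusted p = 0.84) turned to 0.012 without control replicate 3 and to 0.028 without MProPow2 replicate 3. In the annotation, gba-3 overlaps F11E6.9 by 1100 bases and grl-24 by 529 bases, both on the other strand. F11E6.9 had at most 93 reads in a library and grl-24 at most 12. The part of these overlaps in the counts of gba-3 was not tested. Summed over the 4 genes, glucocerebrosidase transcripts were at 149.6 ± 4.52 CPM in control and 125 ± 23.5 CPM in MProPow2, a ratio of 0.84. The share of gba-2 in the summed FPKM of the 4 genes was 0.95% to 1.03% in control libraries and 3.16% to 4.18% in MProPow2 libraries, while that of gba-1 was 14.5% to 15.04% and 9.90% to 11.2%. In each library, gba-4 held most of the sum, with 69.4% to 78.4%.

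Acid sphingomyelinases cut sphingomyelin to ceramide and phosphocholine. All 3 worm genes had higher values in each MProPow2 library than in any control library, as did 11.1% of all genes tested. Of the 3, 1 was called higher, against 1.53% of all genes tested, and asm-3 passed the filter only through MProPow2. Expression of asm-2 (identifier 181323) was 5.99, 6.19 and 6.22 CPM in control and 10.4, 9.09 and 13.4 CPM in MProPow2. This gave a log2 fold change of 0.84 (SE 0.16, edgeR adjusted p = 0.030). With any control library or MProPow2 replicate 1 left out, the adjusted p was 0.091 to 0.127. In all, asm-2 was not called in 8 of the 16 alternatives.

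The most highly expressed of the 3 in control, asm-1 (identifier 174131), was at 11.6, 13.8 and 13.8 CPM in control and 15.9, 15.6 and 14.7 CPM in MProPow2. The groups lay close together, and the log2 fold change of 0.24 (SE 0.12, edgeR adjusted p = 0.37) was not called. In the annotation it overlaps cyn-10 on the other strand by 120 bases. That gene had up to 2640 reads in a library and a log2 fold change of 0.089 (SE 0.085).

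A single library set the level of asm-3 (identifier 176879) in MProPow2. It was at 0.14, 0.19 and 0.22 CPM in control, on 4, 7 and 7 reads, and at 0.99, 0.80 and 33.9 CPM in MProPow2, on 32, 24 and 1015 reads. MProPow2 replicate 3 was thus 34.1 and 42.3 times as high as replicates 1 and 2, which were themselves above every control library. With that spread, the log2 fold change of 5.98 (SE 1.56) had an adjusted p of 0.081 in edgeR. Without MProPow2 replicate 3 it was 2.26 (SE 0.43, adjusted p = 0.0041), and the mean of the remaining MProPow2 libraries was 4.91 times that of control. Without MProPow2 replicate 2 it was 6.53 (adjusted p = 0.042). DESeq2 returned no p for asm-3. The control counts of asm-3 lay under the filter's minimum of 10, so the gene was tested only because of its MProPow2 counts. The adjusted p-values of asm-3 are therefore given as a description only.

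In MProPow2 replicate 3, asm-3 held 53.9% of the summed FPKM of the sphingomyelinase genes, against 3.52% and 3.02% in replicates 1 and 2 and 0.75% to 1.05% in control libraries. Their sum was 19.4 ± 1.42 CPM in control and 38.2 ± 20.6 CPM in MProPow2, a ratio of 1.97, which was 1.36 without MProPow2 replicate 3. Among all genes tested, asm-3 and pud-3 were the only genes with 1 library at least 10 times as high as every other library. In both, that library was MProPow2 replicate 3. The genes with the profile most like that of asm-3 over the 6 libraries were pud-3, pud-4 and pud-1.2, looked up after its values were seen. These belong to a family named for proteins raised in a daf-2 insulin receptor mutant. Their root-mean-square difference in log2 CPM from asm-3 was 0.68, 0.79 and 0.85, and pud-3 was at 5.80, 7.29 and 80.6 CPM in MProPow2, with at most 1.15 CPM in control. By the same measure, the genes nearest to gba-2 were the O-acyltransferase homologs oac-39 (0.14) and oac-49 (0.14) and T22B7.7 (0.15), and those nearest to asah-1, again looked up after its values were seen, were F28H7.3 (0.078), Y70C5A.3 (0.15) and C08F8.6 (0.15). Several of these had low control values, with oac-39 at 0.13 to 0.16 CPM and oac-49 at 0.35 to 0.40 CPM. Y70C5A.3 was at 0.24 to 0.25 CPM and C08F8.6 at 0.63 to 0.89 CPM. Like asm-3, oac-39 and Y70C5A.3 passed the filter only through their MProPow2 libraries. T22B7.7 was at 12.9 to 15.55 CPM and F28H7.3 at 58.1 to 60.7 CPM.

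**Figure D2:**
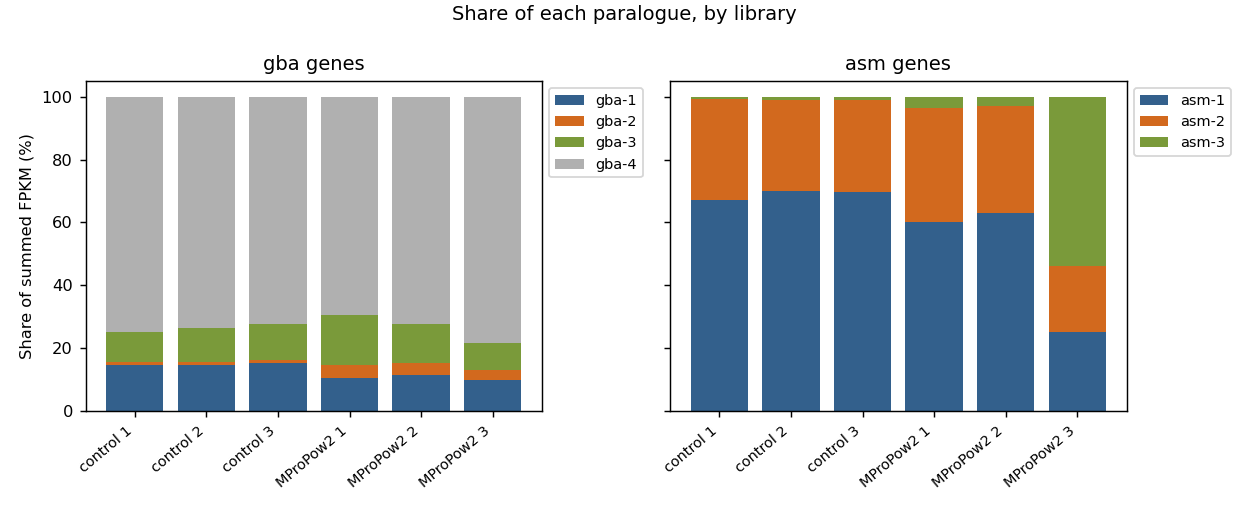
Share of each paralogue in the summed FPKM of the 4 gba genes (left) and of the 3 asm genes (right), in percent for each library. The share of gba-2 was 3.16% to 4.18% in MProPow2 against 0.95% to 1.03% in control, and asm-3 took 53.9% in MProPow2 replicate 3 only.

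**Figure D3:**
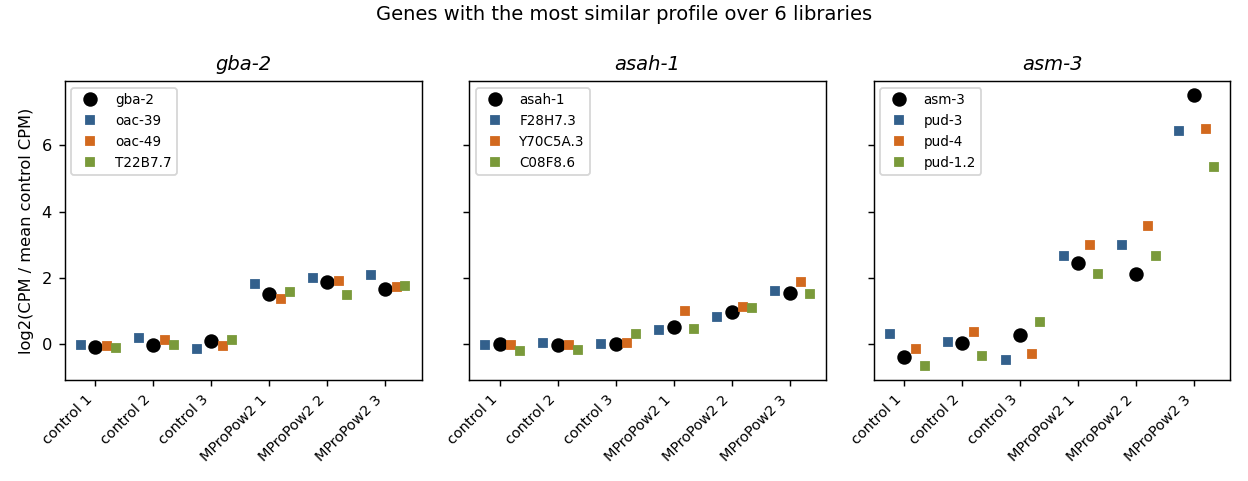
Expression of gba-2, asah-1 and asm-3 (black) and of the 3 genes with the most similar profile to each (coloured), as log2 of CPM over the mean control CPM in each library. MProPow2 replicate 3 stands above the other libraries for asm-3 and its 3 nearest genes, all pud genes, whereas the 3 MProPow2 libraries lie close together for gba-2.

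Acid ceramidase cleaves ceramide into sphingosine and a fatty acid. Its gene asah-1 (identifier 173120) was at 23.3, 22.9 and 23.4 CPM in control and at 33.1, 45.4 and 67.1 CPM in MProPow2. The controls hardly differed, and all MProPow2 libraries were above them, with replicate 3 the highest. Its log2 fold change was 1.07 (SE 0.21, edgeR adjusted p = 0.031). With any control library or MProPow2 replicate 2 left out, the adjusted p was 0.056 to 0.121, and without MProPow2 replicate 3 the fold change was 0.76 and called (adjusted p = 0.0014). In all, asah-1 was not called in 8 of the 16 alternatives. The other ceramidase gene, asah-2, which is not among the 10, had lower rather than higher values: 58.9, 59.3 and 63.5 CPM in control and 34.4, 46.0 and 57.1 CPM in MProPow2. Its log2 fold change of -0.40 (SE 0.16, edgeR adjusted p = 0.23) was not called, but was -0.59 and called without MProPow2 replicate 3 (adjusted p = 0.0053). The difference between the fold changes of asah-1 and asah-2 was not tested.

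Of the 10 genes, sptl-1 and cgt-3 belong to synthesis. Serine palmitoyltransferase joins serine to a fatty acyl-CoA, and sptl-1 (identifier 173389) encodes one of its subunits. It was at 210, 207 and 218 CPM in control and at 162, 164 and 130 CPM in MProPow2. All MProPow2 libraries were below all control libraries. The log2 fold change was -0.48 (SE 0.10, edgeR adjusted p = 0.043). It lost its call when any control library or MProPow2 replicate 1 was left out (adjusted p of 0.106 to 0.147) and under upper-quartile scaling (0.090). In all, sptl-1 was not called in 9 of the 16 alternatives. The gene overlaps tre-5 on the other strand in the annotation, which had at most 53 reads in a library.

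Ceramide glucosyltransferase makes glucosylceramide and so runs opposite to the glucocerebrosidases. Expression of cgt-3 (identifier 174001) was 194, 189 and 182 CPM in control and 158, 164 and 181 CPM in MProPow2. The groups did not overlap, although MProPow2 replicate 3 (181 CPM) lay just below the lowest control library (182 CPM). The log2 fold change of -0.17 (SE 0.086, edgeR adjusted p = 0.37) was not called. It had the same sign, and was not called, in any of the 16 alternatives.

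A further 26 genes of sphingolipid metabolism, listed by role but with earlier results of these data known, were all tested. None was called higher, against 1.53% of all genes tested, and 2 were called lower, sptl-2 and hyl-1, against 1.47%. At an unadjusted p under 0.05 in edgeR, 0 were higher and 8 lower, where 9.13% of all genes tested were higher and 7.75% lower. DESeq2 called 0 higher and 3 lower at its adjusted p, where it called 2.19% of all genes with an adjusted p higher and 2.48% lower. Of the 26 genes, 22 had a fold change below 0, with a median of -0.20, beside 7688 of 14534 and a median of -0.013 for all genes tested. Under upper-quartile scaling 19 were below 0, with a median of -0.13, beside 0.053 for all genes tested. The values of the groups did not overlap for 12 of the 26, all of them lower in MProPow2, where 12.3% of all genes tested were lower and 11.1% higher without overlap.

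The pathway gene with the smallest p was sptl-2 (identifier 266646), which encodes another serine palmitoyltransferase subunit. It was at 38.5, 40.2 and 39.2 CPM in control and at 18.0, 22.9 and 16.9 CPM in MProPow2, so that the group mean fell to 49.0% of control. This gave a log2 fold change of -1.03 (SE 0.13, edgeR adjusted p = 0.0042), and it was called without any one library. The remaining subunit gene, sptl-3, was at 115, 124 and 123 CPM in control and at 103.9, 114 and 67.1 CPM in MProPow2. Its log2 fold change was -0.35 (SE 0.16, edgeR adjusted p = 0.33). Values of all 3 serine palmitoyltransferase genes were lower in each MProPow2 library than in any control library, as were 12.3% of all genes tested. The change of sptl-3 was not called. Each of the 3 was lowest in MProPow2 replicate 3, which was the lowest MProPow2 library for 40.9% of all genes tested.

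Among the ceramide synthases, hyl-1 (identifier 177660) was at 85.1, 82.8 and 80.7 CPM in control and at 62.2, 64.2 and 62.2 CPM in MProPow2. Both groups were tight. Here the log2 fold change was -0.40 (SE 0.074, edgeR adjusted p = 0.025), with an adjusted p of 0.082 to 0.123 once any control library or MProPow2 replicate 1 was left out. In all, hyl-1 was not called in 8 of the 16 alternatives. Its relative hyl-2 overlapped between the groups (log2 fold change -0.24, SE 0.15, edgeR adjusted p = 0.47). The third ceramide synthase gene, lagr-1, named after its values were seen, had only 5 to 19 reads per library.

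None of the other enzymes was called. Fold changes near 0 were found for F33D4.4, a sphingolipid desaturase gene (0.012 ± 0.072, standard error), for sms-1, a sphingomyelin synthase gene (-0.033 ± 0.098), and for bre-3, which encodes a glycosyltransferase acting on glucosylceramide (-0.050 ± 0.10). The sign of each of these 3 turned under at least 1 alternative. Small negative values were found for the ceramide kinase gene cerk-1 (-0.094 ± 0.080), the sphingosine kinase gene sphk-1 (-0.16 ± 0.087), the fatty acid 2-hydroxylase gene fath-1 (-0.20 ± 0.11), the neutral sphingomyelinase-like gene T27F6.6 (-0.22 ± 0.098), the prosaposin-like gene spp-10 (-0.22 ± 0.092) and the sphingosine phosphate lyase gene spl-1 (-0.25 ± 0.082). For cgt-2, another ceramide glucosyltransferase gene, the value was 0.058 ± 0.18. Chosen after its values were seen, ttm-5, the other desaturase gene, was at 15.4, 16.0 and 15.9 CPM in control and at 10.5, 12.9 and 8.57 CPM in MProPow2, without overlap. The fold change of -0.56 on the log2 scale (SE 0.16, edgeR adjusted p = 0.096) was not called, but was called lower by DESeq2, with no filter and without MProPow2 replicate 2. Also chosen in this way, cgt-1 had a log2 fold change of -0.50 (SE 0.18, edgeR adjusted p = 0.19), again without overlap. The values of all 4 sphingomyelin synthase genes overlapped between the groups.

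**Figure D4:**
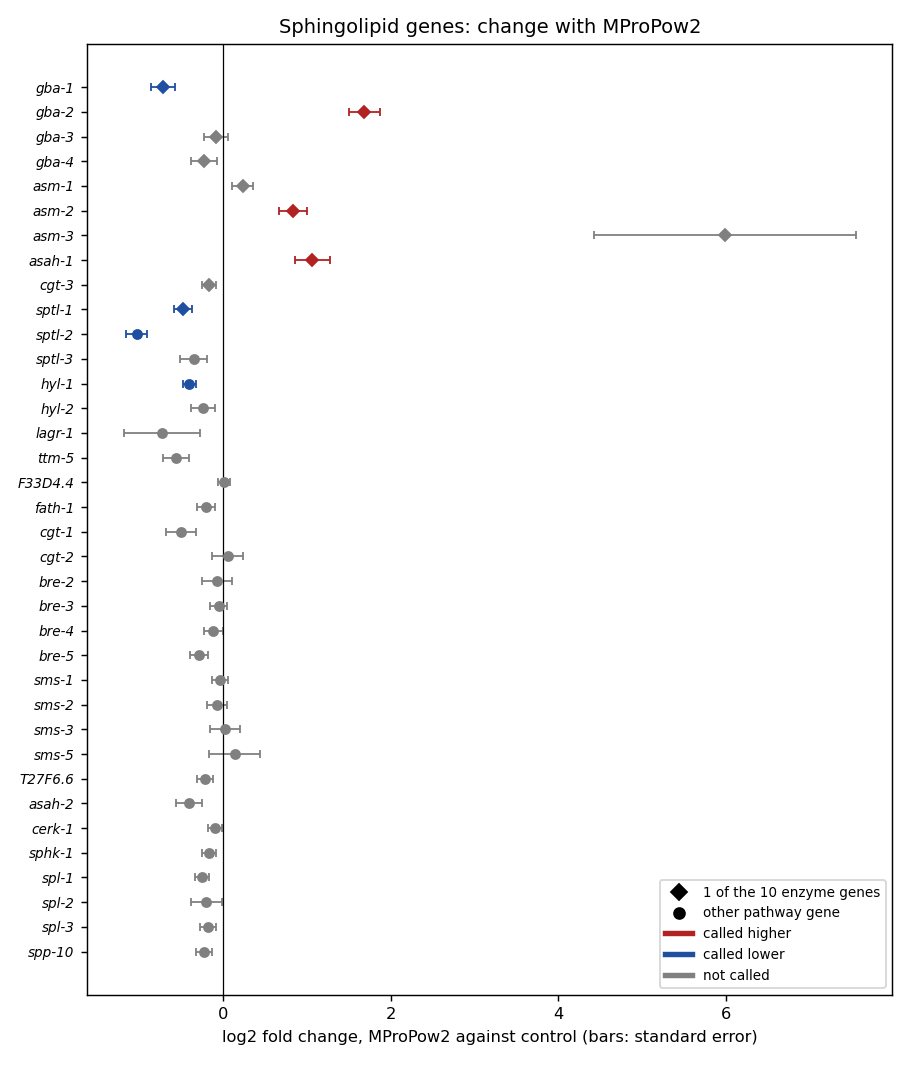
Log2 fold change of MProPow2 against control for the 10 enzyme genes (diamonds) and the 26 other pathway genes (circles), with bars for the standard error of edgeR. Genes called higher are red, genes called lower are blue and genes not called are grey. No pathway gene outside the 10 was called higher, against 1.53% of all genes tested. Of these 26, 22 lie left of 0, beside 7688 of 14534 for all genes tested, and 19 do so under upper-quartile scaling.

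The intestinal markers were lower as well. All 5 that were tested had a fold change below 0, with a median of -0.28, 0 were called, and their summed level was 714 to 742 CPM in control and 527 to 684 CPM in MProPow2. Most of this sum was act-5 (537, 550 and 567 CPM in control), and the values of elt-2 and elt-7 overlapped between the groups. The intestinal sum was lowest in MProPow2 replicate 3 (527 CPM), which was the lowest MProPow2 library for 40.9% of all genes tested. The sum of 4 muscle markers was 503 to 558 CPM in control and 409 to 476 CPM in MProPow2, and 1 of them was called lower. The sum of 6 germline and oocyte markers overlapped between the groups, at 2096 to 2873 CPM and 1968 to 2901 CPM, with none called. That of 4 hypodermal markers was 394 to 505 CPM and 361 to 382 CPM, and that of 4 neuronal markers was 189 to 190.2 CPM and 171 to 202 CPM, again with none called. Most of the hypodermal sum was col-19 (400, 360 and 474 CPM in control). Of the hypodermal markers, 2 had a fold change above 0 and 2 below, as did the neuronal markers. The hypodermal marker bus-8 was higher in MProPow2 without overlap (log2 fold change 0.87, SE 0.24, edgeR adjusted p = 0.095). No marker was at 0. The part of these shifts in the lower values of the sphingolipid genes was not tested.

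Among the 3 MProPow2 libraries, replicate 3 was the highest for 5 of the 10 genes (gba-4, asm-2, asm-3, asah-1 and cgt-3) and the lowest for 3 of them (gba-3, asm-1 and sptl-1). Over all genes tested, replicate 3 was the highest of the 3 in 37.8% and the lowest in 40.9%. Without it, 4 of the 10 genes were called higher (asm-3 was added) and 3 lower (gba-4 was added), where 4.21% and 2.80% of all genes tested were called higher and lower.

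**Figure D5:**
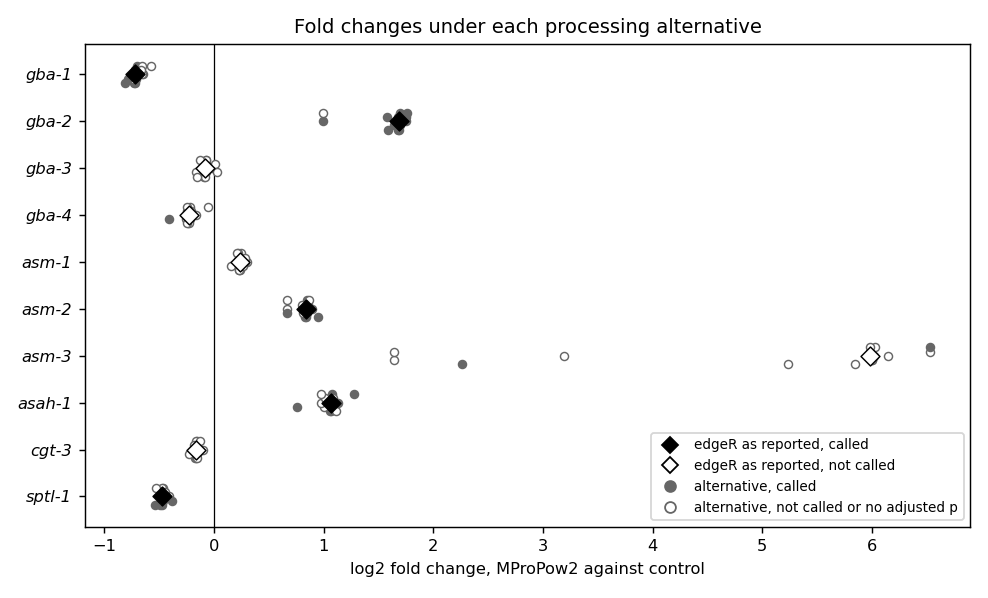
Log2 fold change of each of the 10 genes under edgeR as reported (diamonds) and under each alternative (circles), filled where the gene was called. The values of gba-2 stay above 0.99, those of asm-3 run from 1.64 to 6.53, and those of gba-3 fall on both sides of 0.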

How the data were processed

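RNA from 6 whole-animal samples, 3 control and 3 MProPow2, was analysed, with groups taken from the sample titles and columns matched to the sample descriptions, leaving 0 columns over. Paired-end reads were aligned by the authors with HISAT2 and summed by gene with featureCounts, and the raw counts were deposited. The authors also deposited FPKM values, and how these were computed is not stated. Genome build, annotation version and strandedness are not stated, so no coordinates are printed.

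Differential expression was tested in R 4.3.3 with edgeR 4.0.16 (filterByExpr with a minimum count of 10, TMM scaling, quasi-likelihood F test on group alone), with Benjamini-Hochberg adjustment over 14534 genes at a threshold of 0.05. CPM values use TMM-scaled library sizes, and the common biological coefficient of variation was 13.9%. An exact permutation test of 3 against 3 cannot go below p = 0.1 and was not used. Low counts limit the precision of gba-2, asm-3, lagr-1 and sms-5.

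The 10 genes and the lists of pathway and marker genes were chosen with earlier results of these data known. The genes named are the 10, the pathway genes called, the most highly expressed pathway gene of each enzyme class by FPKM, and the 3 genes nearest to gba-2 by root-mean-square difference of log2 CPM (prior count of 2) centred on the control mean. Any further genes were named once their values had been seen. The alternatives were RLE or upper-quartile scaling, a minimum of 10 counts in every library, no filter, DESeq2 1.42.0, a replicate block, leaving out each library, and limma 3.58.1 on log2(FPKM + 1) or log2(FPKM + 0.1), with a mean FPKM of at least 0.1 or, for the former, no filter. Robust estimation in edgeR was added after the data were seen. The code was tested on simulated counts for 14534 genes with 200 changed by a factor of 2, of which edgeR recovered 70.5%, DESeq2 72.0% and limma 69.5%. False calls numbered 7 in edgeR, 18 in DESeq2 and 8 in limma, which was run there on counts scaled to 1000000 rather than on FPKM. Sequences of the genes were not used here.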

Additional observations from a re-analysis of the deposited data

How the results depend on the processing

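The count of the 10 genes called was 3 higher and 2 lower in edgeR, and the same 5 genes were called with RLE, with at least 10 counts in every library, with robust estimation and by DESeq2. Over all genes, these alternatives called from 156 to 344 higher and from 166 to 389 lower. Under a replicate block and in limma with the filter, at either pseudocount, 1 was called higher (gba-2) and 0 lower, and in limma with no filter 0 were called higher and 0 lower. Over all genes, the replicate block called 90 higher and 102 lower of 14534. Limma with the filter called 37 higher and 60 lower of 20811 with a pseudocount of 1. With a pseudocount of 0.1 it called 66 and 82, and with no filter 12 and 33 of 26609. Under upper-quartile scaling 3 were higher and 0 lower, where 229 of all genes were called higher and 131 lower. With 1 library left out, from 1 to 4 were higher and from 0 to 3 lower. Over all genes, those fits called from 17 to 627 higher and from 55 to 417 lower. The pathway genes called lower numbered 2 in edgeR, 5 with no filter, 1 (sptl-2) under the replicate block and in limma with the filter, 0 in limma with no filter, and from 1 to 3 with 1 library left out. With no filter, edgeR called 684 of 26609 genes higher and 542 lower. Of the 10 genes, that fit called 4 higher (asm-3 was added) and 2 lower. No pathway gene was called higher in any of the 16 alternatives. Same-numbered libraries did not deviate together (correlations of -0.048, 0.096 and -0.12), so that the replicate block rests on a shared number only.

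Most reversed fold changes were small, among them gba-3 at 0.012 without control replicate 3 and 0.028 without MProPow2 replicate 3, bre-3 at 0.015 and sms-1 at 0.032 with upper-quartile scaling. The largest reversal was that of cgt-2, at -0.16 without MProPow2 replicate 2 against 0.058 with all libraries. With 1 library left out, F33D4.4 ran from -0.0067 to 0.021, cgt-2 from -0.16 to 0.22, bre-3 from -0.14 to 0.011, sms-1 from -0.13 to 0.015 and gba-3 from -0.16 to 0.028. The median of the 10 genes turned to -0.071 with at least 10 counts in every library, a filter that drops asm-3. With no filter, the standard error of asm-3 was 0.49 in place of 1.56 and its adjusted p in edgeR was 3.4e-20. In limma with no filter, the adjusted p was 0.073 for gba-2 and 0.055 for sptl-2, their only losses in the 16 alternatives. Summed CPM ratios with 1 library left out ran from 0.77 to 0.93 for the gba genes, from 1.36 to 2.30 for the asm genes and from 0.85 to 0.94 for all 10 genes. The cause of these shifts was not tested.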
